A study of Mus musculus with 6 samples.

Results

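The genes described here build the mitochondrial ribosome, the respiratory chain and the machinery that imports proteins into mitochondria. They were chosen by name, as every gene of the deposited comparison whose symbol begins with Mrpl, Mrps, Nduf, Cox and a digit, Uqcr, Atp5, Sdh and a letter from a to d, Timm or Tomm, and 51 of its 2387 genes met this rule. RNA sequencing (RNA-seq) compared CD4+ T cells of SRC2fl/fl/Foxp3YFP-Cre mice with those of Foxp3YFP-Cre mice after 36 hours of polarization toward regulatory T cells (Tregs), with 3 libraries per genotype, each from a different mouse. SRC2fl/fl/Foxp3YFP-Cre mice carry floxed alleles of Ncoa2, which encodes the transcriptional coactivator SRC2, and a Cre recombinase fused to yellow fluorescent protein and made only by cells that express Foxp3, the lineage factor of Tregs. Their control, Foxp3YFP-Cre mice, carries the same Cre and no floxed Ncoa2. Mice were on a C57BL/6j background and 6 to 10 weeks of age. Naive CD4+ T cells were enriched from spleen by negative selection and cultured with anti-CD3 (0.25 μg/ml), anti-CD28 (1 μg/ml), transforming growth factor β (TGFβ, 5 ng/ml), and antibodies to interleukin-4 and interferon-γ (2.5 μg/ml each). Deletion follows Foxp3, so cells that have not switched on Foxp3 are not targeted, and no sort of the polarized cells before RNA extraction is described.

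Mitochondria keep a small genome that encodes a few core subunits of the respiratory chain, and a dedicated ribosome translates them. All proteins of that ribosome and most respiratory chain subunits are encoded in the nucleus, made in the cytosol, and carried through the translocases of the outer (TOM) and inner (TIM) mitochondrial membranes. Activated T cells enlarge this machinery as they leave the naive state.

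The deposited values are the authors' mean level of each genotype in counts per 1000000 (CPM), with no value per library, so the spread between mice and the depth are unknown here, no value carries an SD, and no difference was tested. Every gene of the deposited comparison had a P value below 0.05 in the authors' own test, and the log2 ratios closest to 0 were -0.17 and 0.18. A gene is called listed where the deposited comparison holds it, and one that is not listed is called neither changed nor unchanged. Levels of Ncoa2 averaged 127 CPM in SRC2fl/fl/Foxp3YFP-Cre against 164 CPM in Foxp3YFP-Cre (log2 ratio -0.36). Foxp3 averaged 42.4 CPM in SRC2fl/fl/Foxp3YFP-Cre against 82.5 CPM in Foxp3YFP-Cre (-0.96). The deleted gene and Foxp3 were thus both lower in SRC2fl/fl/Foxp3YFP-Cre, and how much of the remaining Ncoa2 came from cells without deletion was not tested. Among markers of other cells, 4 of 9 B cell markers were listed and summed to 104 CPM in SRC2fl/fl/Foxp3YFP-Cre against 62.4 CPM in Foxp3YFP-Cre. These were Cd74 and class II major histocompatibility genes, which other antigen-presenting cells also use. Most of both sums was Cd74, at 75.3 CPM in SRC2fl/fl/Foxp3YFP-Cre against 55.9 CPM in Foxp3YFP-Cre. H2-Aa was at 8.91 CPM in SRC2fl/fl/Foxp3YFP-Cre against 0.36 CPM in Foxp3YFP-Cre, and H2-Ab1 at 7.39 CPM against 0.157 CPM. Of 8 myeloid markers only Lyz2 was listed, at 45.4 CPM in SRC2fl/fl/Foxp3YFP-Cre against 0.31 CPM in Foxp3YFP-Cre. Of 5 dendritic cell markers 3 were listed, with a sum of 55.9 CPM in SRC2fl/fl/Foxp3YFP-Cre against 11.0 CPM in Foxp3YFP-Cre, and of 6 mast cell markers 3 were listed, with a sum of 22.1 CPM in SRC2fl/fl/Foxp3YFP-Cre against 1.85 CPM in Foxp3YFP-Cre. No listed marker of these lists was at 0. Of 8 T cell markers Cd28 alone was listed, at 180 CPM in SRC2fl/fl/Foxp3YFP-Cre against 256 CPM in Foxp3YFP-Cre. Each listed marker differed between genotypes, as every listed gene does by the P value threshold, and the markers that are not listed have no value here. The part of these markers in the results below was not tested.

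Of the 51 mitochondrial genes, 49 had a higher mean in SRC2fl/fl/Foxp3YFP-Cre cells than in Foxp3YFP-Cre cells and 2, Mrpl23 and Tomm34, had a lower one. In the whole comparison 69.2% of genes were higher in SRC2fl/fl/Foxp3YFP-Cre, so the genes leaned further in the common direction than the rest. Their sum was 2051 CPM in SRC2fl/fl/Foxp3YFP-Cre against 1649 CPM in Foxp3YFP-Cre, 24.4% more, while the sum over all 2387 genes was 6.63% more. Their median log2 ratio was 0.36, a 28.8% higher mean, next to a median of 0.33 over all genes. When ratios were centred on that median, 33 of the 51 genes lay above it and 18 below, against 49.98% of all genes above it. These medians and counts include lower genes, which were 2 of the 51 and 735 of all 2387. Among higher genes alone, the median log2 ratio was 0.37 for the mitochondrial genes and 0.41 for the whole comparison. By these medians, the genes differed from the others in how rarely they were lower more than in the middle size of their ratio. Large ratios were rarer among them, as the fold thresholds below show. The middle quartiles of their ratios ran from 0.29 to 0.43, and those of all genes from -0.30 to 0.50. In bulk RNA, a different number of cells of a type and a different amount of RNA per cell cannot be told apart.

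**Figure D1:**
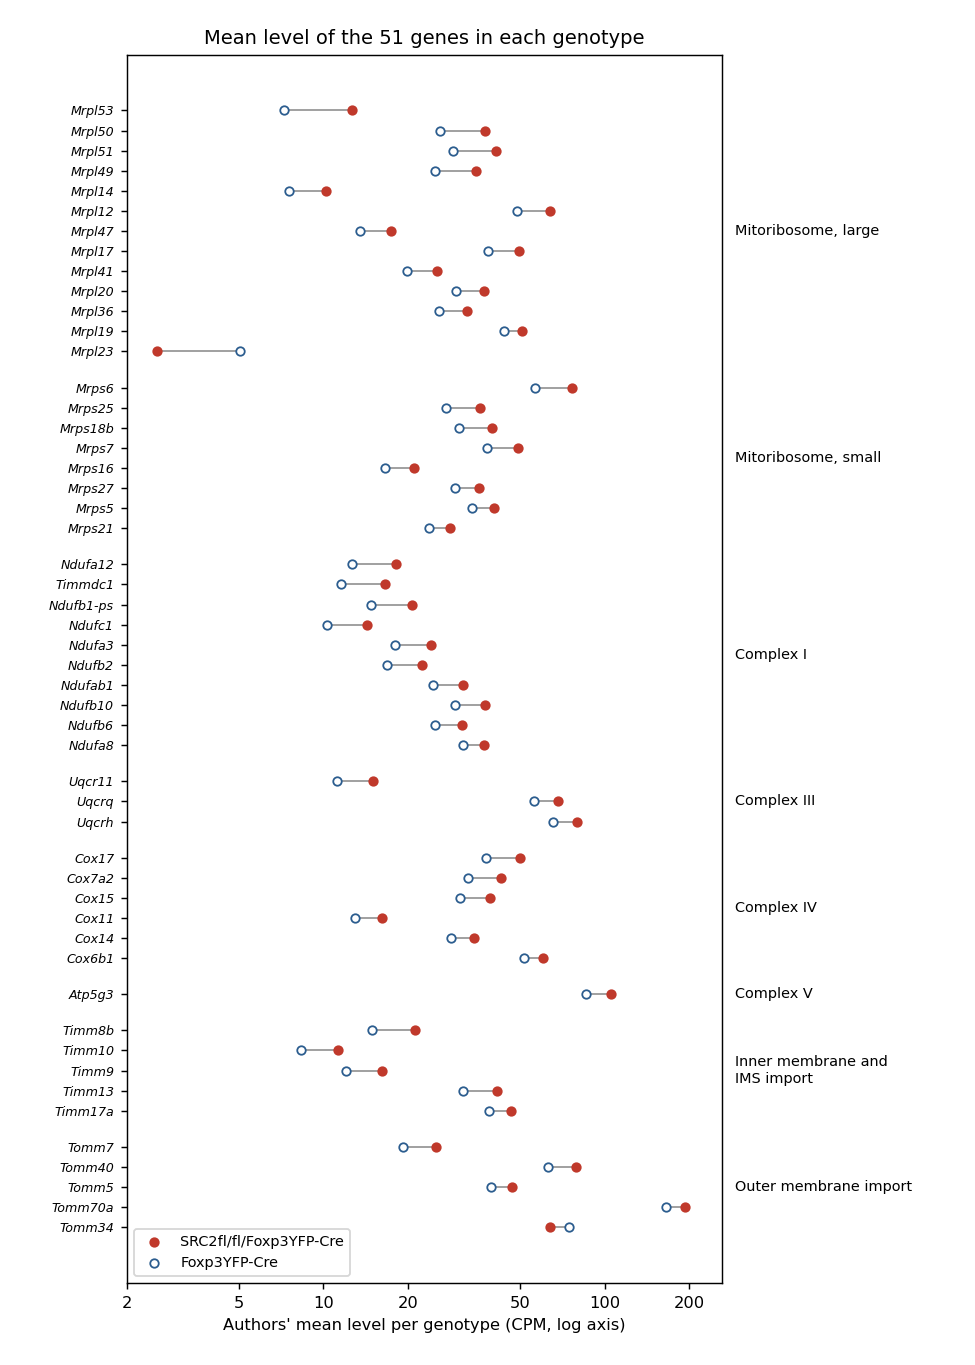
Authors' mean level of each of the 51 genes in SRC2fl/fl/Foxp3YFP-Cre cells (filled) and Foxp3YFP-Cre cells (open), in CPM on a log axis, with genes ordered by ratio within their functional group. The filled point lies to the right of the open one for 49 genes and to the left for Mrpl23 and Tomm34.

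At a 1.4-fold difference, 6 of the 51 genes (11.8%) were higher in SRC2fl/fl/Foxp3YFP-Cre, against 26.3% of all genes. These were Mrpl53, Mrpl50, Mrpl51, Ndufa12, Timmdc1 and Timm8b. Only Mrpl23 was lower by that fold, against 14.1% of all genes. Of the 51 genes, 34 (66.7%) had a mean higher by more than 25%, against 51.5% of all genes, and at 1.5-fold only Mrpl53 remained, against 18.5% of all genes. The genes thus gathered in a band of small ratios, less often past 1.4-fold and 1.5-fold than the whole comparison. Their larger share past 25% went with their larger share of higher genes. Among higher genes alone, 34 of 49 passed 25%, a slightly smaller share than the 1229 of 1652 over the whole comparison. The shares of higher genes differed more at larger folds. At 1.4-fold 6 of 49 passed, against 627 of 1652, and at 1.5-fold 1 of 49 passed, against 441 of 1652.

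The promoters of the genes with the extreme ratios and of further genes with a recognized motif are shown here because the same short elements recur upstream of nuclear genes for mitochondrial proteins. Each sequence is the 120 bases before the RefSeq transcription start (GRCm38.p6), written from 5′ to 3′ on the strand of the gene, with letters of a motif in capitals. Mrpl53 (chr6:83108988-83109107, plus strand) had the largest ratio, and Timmdc1 (chr16:38522664-38522783, minus strand), Timm8b (chr9:50603781-50603900, plus strand) and Mrpl51 (chr6:125192080-125192199, plus strand) were also past 1.4-fold. Uqcr11 (chr10:80406822-80406941, minus strand), Mrpl36 (chr13:73330889-73331008, plus strand) and Ndufa8 (chr2:36049339-36049458, minus strand) were chosen after the motif search to show further motifs. Tomm34 (chr2:164071170-164071289, minus strand) and Mrpl23 (chr7:142532912-142533031, plus strand) were the genes with a lower mean. The RefSeq start can differ from the start of the gene in the GENCODE annotation. By GENCODE, the sequences of Mrpl51, Mrpl36 and Mrpl23 lie inside the gene, and those of Mrpl53, Ndufa8 and Uqcr11 lie partly inside it.
Mrpl53: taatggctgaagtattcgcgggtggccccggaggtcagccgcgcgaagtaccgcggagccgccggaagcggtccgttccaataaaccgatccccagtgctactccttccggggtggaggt
Timmdc1: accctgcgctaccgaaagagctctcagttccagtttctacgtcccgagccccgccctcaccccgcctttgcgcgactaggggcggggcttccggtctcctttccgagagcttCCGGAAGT
Timm8b: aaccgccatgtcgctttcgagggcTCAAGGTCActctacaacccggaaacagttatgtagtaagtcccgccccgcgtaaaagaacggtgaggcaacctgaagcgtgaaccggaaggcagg
Mrpl51: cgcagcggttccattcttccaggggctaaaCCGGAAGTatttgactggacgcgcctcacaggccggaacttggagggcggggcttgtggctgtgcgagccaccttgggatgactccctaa
Uqcr11: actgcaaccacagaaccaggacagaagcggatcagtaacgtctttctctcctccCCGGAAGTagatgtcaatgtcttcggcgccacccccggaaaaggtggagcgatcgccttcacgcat
Mrpl36: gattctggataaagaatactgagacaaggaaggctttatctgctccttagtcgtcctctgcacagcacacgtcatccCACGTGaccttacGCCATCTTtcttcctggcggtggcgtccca
Ndufa8: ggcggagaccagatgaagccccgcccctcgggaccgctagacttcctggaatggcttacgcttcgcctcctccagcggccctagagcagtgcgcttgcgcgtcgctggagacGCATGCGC
Tomm34: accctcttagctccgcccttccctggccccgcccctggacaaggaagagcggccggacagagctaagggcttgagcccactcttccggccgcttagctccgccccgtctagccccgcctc
Mrpl23: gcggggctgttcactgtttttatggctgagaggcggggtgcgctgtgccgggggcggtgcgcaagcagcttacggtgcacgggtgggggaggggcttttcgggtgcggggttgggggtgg

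The 5 motifs, spelled by 1 sequence each, were searched on both strands from 250 bases before to 50 bases after the RefSeq start. Distances of motifs are counted from that start. They were GCGCATGC of nuclear respiratory factor NRF1, CCGGAAGT of ETS factors such as GABPA, AAGATGGC of YY1, TCAAGGTCA of the estrogen-related receptors (ERR), and CACGTG, the E-box, and none of these contains another. A promoter was at hand for 46 of the 51 genes. The ETS motif was in 19.6% of these promoters, against 9.85% of those of the other genes of the comparison and 5.29% of those of all coding genes. It starts 8 bases before the start of Timmdc1, 90 before that of Mrpl51 and 66 before that of Uqcr11. Timmdc1 has another ETS motif farther upstream, and an NRF1 motif of Uqcr11 runs across the start, so neither is in capitals above. The YY1 motif was in 13.0% of the promoters, against 4.73% of those of the other genes and 3.22% of those of all coding genes, and in the Mrpl36 promoter it stands on the opposite strand with an E-box beside it. The NRF1 motif was in 10.9%, against 5.86% of those of the other genes and 3.60% of those of all coding genes, and ends at the start of Ndufa8 on the opposite strand. The ERR motif was in 2 promoters, those of Timm8b and Atp5g3, or 4.35%, against 0.282% of those of the other genes and 0.332% of those of all coding genes. The E-box was as frequent as in the other listed genes, 10.9% against 11.1% (all coding genes, 7.90%).

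Genes of the same families that were not listed had similar shares of most motifs. In 135 such promoters the NRF1 motif was in 11.9%, the ETS motif in 12.6%, the YY1 motif in 14.1%, the ERR motif in 0.741% and the E-box in 8.15%. One or more of the NRF1, ETS and YY1 motifs was in 39.1% of the promoters of listed genes and in 36.3% of those of unlisted ones, against 19.4% of those of the other genes of the comparison. Listed and unlisted genes of the families were close in the NRF1 and YY1 motifs, and the ETS and ERR motifs were more frequent in listed ones. For ETS this was 9 of 46 promoters against 17 of 135. For ERR it was 2 of 46 against 1 of 135, too few to read a difference from. Among listed genes, the 18 with such a motif had a median log2 ratio of 0.38 and all were higher in SRC2fl/fl/Foxp3YFP-Cre, and the 28 without one had a median of 0.35 and 26 were higher. Mrpl53, Mrpl50, Ndufa12, Mrpl23 and Tomm34 held none of the 5 motifs in this window. Timmdc1, Timm8b and Mrpl51, also past 1.4-fold higher, held an ETS or ERR motif. Lacking the NRF1, ETS and YY1 motifs was common, as 28 of the 46 promoters held none of them, so their lack was not particular to the extremes. Promoters without any of the 5 motifs were fewer, as Timm8b and others of the 28 held an ERR motif or an E-box.

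**Figure D2:**
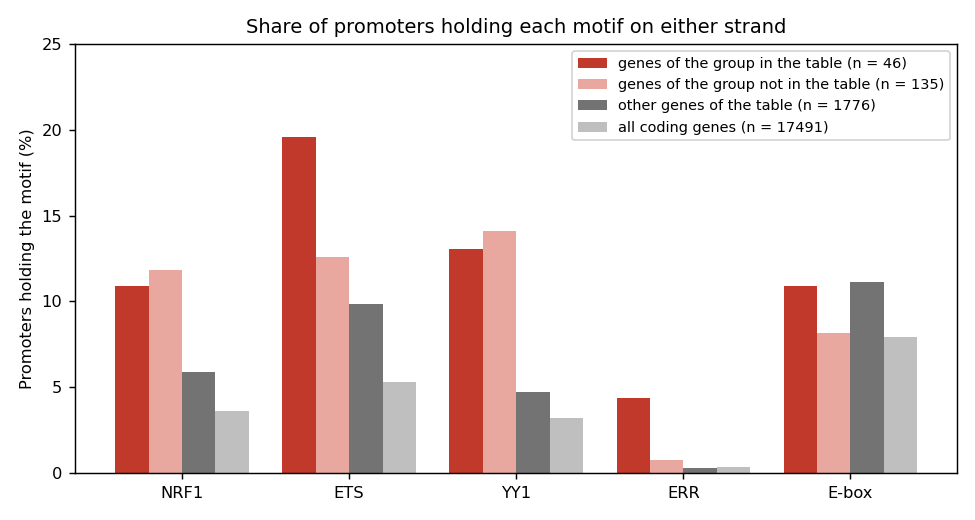
Share of promoters (250 bases before to 50 after the RefSeq start) that hold each motif on either strand, in percent, for listed genes of the mitochondrial families, unlisted genes of these families, other genes of the comparison, and all coding genes. ETS, YY1 and NRF1 bars of both family sets are taller than those of the other genes, and the E-box bars are not.

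Proteins of the large subunit of the mitochondrial ribosome made up the biggest group. Of 13 genes, 12 were higher in SRC2fl/fl/Foxp3YFP-Cre, with a median log2 ratio of 0.37, and their sum was 416 CPM in SRC2fl/fl/Foxp3YFP-Cre against 320 CPM in Foxp3YFP-Cre. Mrpl53 averaged 12.6 CPM in SRC2fl/fl/Foxp3YFP-Cre against 7.26 CPM in Foxp3YFP-Cre, a log2 ratio of 0.80 and the largest of the 51 genes. It lies on chromosome 6 from 83109040 to 83109939 (GRCm38, plus strand), and 418 bases of an exon overlap the coding gene Gm42688 on the same strand, so reads of the 2 genes may have been divided between them. Mrpl50 averaged 37.7 CPM in SRC2fl/fl/Foxp3YFP-Cre against 26.0 CPM in Foxp3YFP-Cre (0.53). For Mrpl51 the means were 40.9 CPM in SRC2fl/fl/Foxp3YFP-Cre against 28.9 CPM in Foxp3YFP-Cre (0.50). For Mrpl49 they were 34.9 CPM in SRC2fl/fl/Foxp3YFP-Cre against 24.9 CPM in Foxp3YFP-Cre (0.48), so these genes stood above the middle of the group. Mrpl12, a protein of the ribosomal stalk, averaged 63.8 CPM in SRC2fl/fl/Foxp3YFP-Cre against 48.8 CPM in Foxp3YFP-Cre (0.39). Mrpl19 had the smallest ratio of the higher genes, with 50.9 CPM in SRC2fl/fl/Foxp3YFP-Cre against 43.9 CPM in Foxp3YFP-Cre (0.22).

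Mrpl23 went the other way. This large subunit gene on chromosome 7 (142532686 to 142540747, plus strand) averaged 2.56 CPM in SRC2fl/fl/Foxp3YFP-Cre against 5.06 CPM in Foxp3YFP-Cre, 1.97-fold lower (log2 ratio -0.98). It had the lowest level of the 51 genes in both genotypes, and the annotation names a pseudogene copy of it, so its value is uncertain.

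All 8 listed proteins of the small subunit were higher in SRC2fl/fl/Foxp3YFP-Cre, with a median log2 ratio of 0.36 and sums of 327 CPM in SRC2fl/fl/Foxp3YFP-Cre against 256 CPM in Foxp3YFP-Cre. Mrps6 averaged 76.4 CPM in SRC2fl/fl/Foxp3YFP-Cre against 56.7 CPM in Foxp3YFP-Cre (0.43). It shares 159 bases of an exon with Slc5a3, a sodium/myo-inositol cotransporter gene on the same strand, which averaged 90.7 CPM in SRC2fl/fl/Foxp3YFP-Cre against 44.1 CPM in Foxp3YFP-Cre (1.04), so the level of Mrps6 is uncertain. Mrps25 averaged 36.2 CPM in SRC2fl/fl/Foxp3YFP-Cre against 27.3 CPM in Foxp3YFP-Cre (0.41). Mrps18b averaged 39.6 CPM in SRC2fl/fl/Foxp3YFP-Cre against 30.3 CPM in Foxp3YFP-Cre (0.38). Mrps7 averaged 49.3 CPM in SRC2fl/fl/Foxp3YFP-Cre against 38.2 CPM in Foxp3YFP-Cre (0.37). The other 4 genes had log2 ratios from 0.25 to 0.35, so this subunit held a narrow span of ratios and no gene past 1.4-fold.

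**Figure D3:**
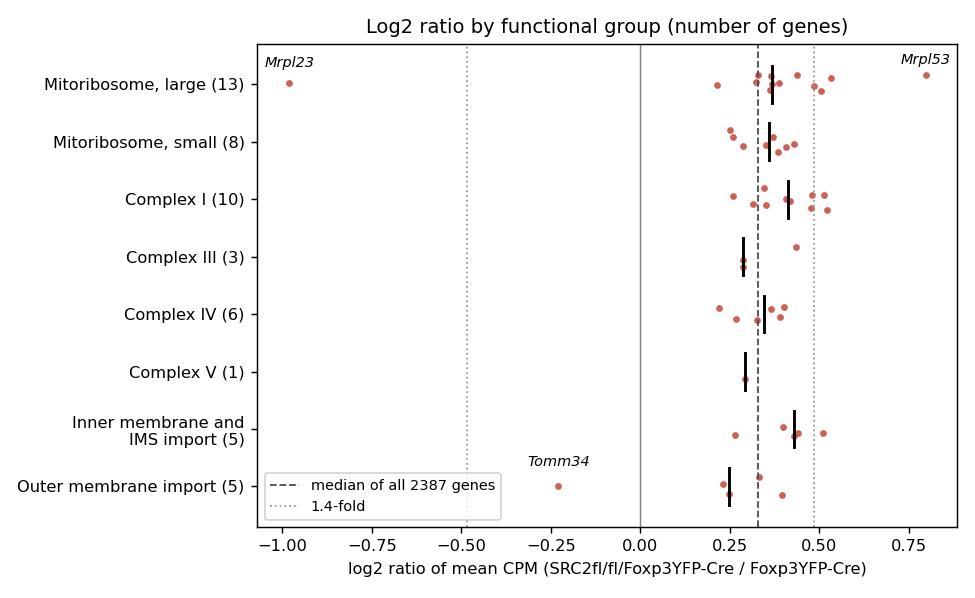
Log2 ratio of mean CPM (SRC2fl/fl/Foxp3YFP-Cre over Foxp3YFP-Cre) for the 51 genes by functional group, each point a gene and each bar the median of the group. The dashed line is the median of all 2387 genes (0.33), the dotted lines mark 1.4-fold, and group medians lie between 0.25 and 0.43.

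Complex I, which takes electrons from NADH, was represented by 10 genes, all higher in SRC2fl/fl/Foxp3YFP-Cre. Their median log2 ratio was 0.41, and they summed to 253 CPM in SRC2fl/fl/Foxp3YFP-Cre against 194 CPM in Foxp3YFP-Cre. Ndufa12, an accessory subunit, averaged 18.1 CPM in SRC2fl/fl/Foxp3YFP-Cre against 12.6 CPM in Foxp3YFP-Cre (0.52). Timmdc1, a complex I assembly factor that carries a TIM-like name, averaged 16.5 CPM in SRC2fl/fl/Foxp3YFP-Cre against 11.6 CPM in Foxp3YFP-Cre (0.51). Ndufb1-ps, annotated as a noncoding RNA by GENCODE and as the coding gene Ndufb1 by RefSeq, averaged 20.6 CPM in SRC2fl/fl/Foxp3YFP-Cre against 14.8 CPM in Foxp3YFP-Cre (0.48). Its exons overlap those of Cpsf2 on the other strand, which was also higher (log2 ratio 0.33), so its level is uncertain. Ndufc1, another accessory subunit, averaged 14.3 CPM in SRC2fl/fl/Foxp3YFP-Cre against 10.3 CPM in Foxp3YFP-Cre (0.48). The 2 most abundant of the group had smaller ratios. Ndufb10 averaged 37.4 CPM in SRC2fl/fl/Foxp3YFP-Cre against 29.5 CPM in Foxp3YFP-Cre (0.34). Ndufa8 averaged 37.4 CPM in SRC2fl/fl/Foxp3YFP-Cre against 31.2 CPM in Foxp3YFP-Cre (0.26). All 9 listed Nduf genes belong to the accessory subunits, of which 8 of 27 annotated coding genes were listed with Ndufb1-ps as the ninth. None of 11 annotated Ndufs and Ndufv genes, which include the core subunits, was listed, nor any of 8 Ndufaf assembly factors or 8 genes with the Sdh prefix of complex II. Of all annotated coding genes 9.93% were listed, a share at which sets this small hold few genes or none.

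Complex III passes electrons to cytochrome c, and 3 of its subunits were listed, all higher in SRC2fl/fl/Foxp3YFP-Cre. Uqcr11 averaged 15.1 CPM in SRC2fl/fl/Foxp3YFP-Cre against 11.1 CPM in Foxp3YFP-Cre (0.43). Uqcrq averaged 68.3 CPM in SRC2fl/fl/Foxp3YFP-Cre against 56.0 CPM in Foxp3YFP-Cre (0.29). Uqcrh, the hinge protein, averaged 79.6 CPM in SRC2fl/fl/Foxp3YFP-Cre against 65.3 CPM in Foxp3YFP-Cre (0.29). Per kilobase of transcript, Uqcrq had the highest level of the 50 genes with an annotated length, at 169 CPM in SRC2fl/fl/Foxp3YFP-Cre against 138 CPM in Foxp3YFP-Cre. Uqcr11 was at 33.8 CPM in SRC2fl/fl/Foxp3YFP-Cre against 25.03 CPM in Foxp3YFP-Cre on that scale. The subunit with the lowest level of these 3 thus had the largest ratio.

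Complex IV, cytochrome c oxidase, was represented by 6 genes with ratios from 0.22 to 0.40, and 4 of them encode assembly factors. Cox17, a copper chaperone, averaged 50.1 CPM in SRC2fl/fl/Foxp3YFP-Cre against 37.9 CPM in Foxp3YFP-Cre (0.40). Cox15, needed to make heme A, averaged 39.2 CPM in SRC2fl/fl/Foxp3YFP-Cre against 30.5 CPM in Foxp3YFP-Cre (0.36). Cox11, which delivers copper to the enzyme, averaged 16.2 CPM in SRC2fl/fl/Foxp3YFP-Cre against 12.9 CPM in Foxp3YFP-Cre (0.33). Cox14, which helps to assemble the enzyme, averaged 34.2 CPM in SRC2fl/fl/Foxp3YFP-Cre against 28.4 CPM in Foxp3YFP-Cre (0.27). The 2 listed structural subunits had ratios near the top and at the bottom of the range of the group. Cox7a2 averaged 42.9 CPM in SRC2fl/fl/Foxp3YFP-Cre against 32.7 CPM in Foxp3YFP-Cre (0.39). Cox6b1 averaged 60.2 CPM in SRC2fl/fl/Foxp3YFP-Cre against 51.7 CPM in Foxp3YFP-Cre (0.22). Of ATP synthase, complex V, only 1 of 17 annotated Atp5 genes was listed. Atp5g3, one of the genes for the subunit of its rotating ring, averaged 105 CPM in SRC2fl/fl/Foxp3YFP-Cre against 86.0 CPM in Foxp3YFP-Cre (0.29).

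Among import genes, the small TIM chaperones of the intermembrane space had the larger ratios. Timm8b averaged 21.2 CPM in SRC2fl/fl/Foxp3YFP-Cre against 14.9 CPM in Foxp3YFP-Cre (0.51). Timm10 averaged 11.3 CPM in SRC2fl/fl/Foxp3YFP-Cre against 8.34 CPM in Foxp3YFP-Cre (0.44). Timm9, its partner in a ring of small chaperones, averaged 16.2 CPM in SRC2fl/fl/Foxp3YFP-Cre against 12.0 CPM in Foxp3YFP-Cre (0.43). Timm13, partner of the Timm8 proteins, averaged 41.3 CPM in SRC2fl/fl/Foxp3YFP-Cre against 31.4 CPM in Foxp3YFP-Cre (0.40). These 4 chaperones had a median log2 ratio of 0.43. Timm17a, part of the channel for proteins with a presequence, averaged 46.6 CPM in SRC2fl/fl/Foxp3YFP-Cre against 38.8 CPM in Foxp3YFP-Cre (0.26).

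Outer membrane import had a median log2 ratio of 0.25 over 5 genes and of 0.29 over the 4 genes without Tomm34, close to the 0.29 of complex III. Tomm7, a small subunit of the translocase, averaged 25.2 CPM in SRC2fl/fl/Foxp3YFP-Cre against 19.2 CPM in Foxp3YFP-Cre (0.39). Tomm40, its channel, averaged 78.9 CPM in SRC2fl/fl/Foxp3YFP-Cre against 62.7 CPM in Foxp3YFP-Cre (0.33). Tomm5 averaged 47.0 CPM in SRC2fl/fl/Foxp3YFP-Cre against 39.6 CPM in Foxp3YFP-Cre (0.25). Tomm70a, the receptor for carrier proteins, averaged 194 CPM in SRC2fl/fl/Foxp3YFP-Cre against 165 CPM in Foxp3YFP-Cre (0.23). Tomm34 is named like these but is a cytosolic cochaperone. It averaged 63.8 CPM in SRC2fl/fl/Foxp3YFP-Cre against 74.7 CPM in Foxp3YFP-Cre (-0.23), so the 2 lower genes were a ribosomal protein of low level and a protein outside the translocase.

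The log2 ratio tended to be smaller in genes of higher level. Over 50 of the genes with an annotated transcript length, Spearman's rho between the log2 ratio and the mean of both genotypes was -0.48, and it was -0.55 over the 48 of them that were higher. Over the genes of the whole comparison with such a length (n = 2178) rho was -0.35. That value includes genes with a lower mean, and rho over the higher genes alone of the whole comparison was not computed. These rho values are descriptions across genes of the same libraries. How the P value threshold of the deposited comparison bears on them was not tested. Most of the genes are short. Their median transcript length was 811 bases, against 2819 bases for all genes. Among genes of the comparison in the shortest of 3 length bands of near equal size (204 to 2134 bases), 80.3% of 686 other genes were higher in SRC2fl/fl/Foxp3YFP-Cre, and 38 of the 40 mitochondrial genes in that band were. In the longest band (3716 to 16144 bases) 58.6% of the other genes were higher, and so were all 7 mitochondrial genes. Length thus moved with direction in the whole comparison, and its part in the result was not tested.

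**Figure D4:**
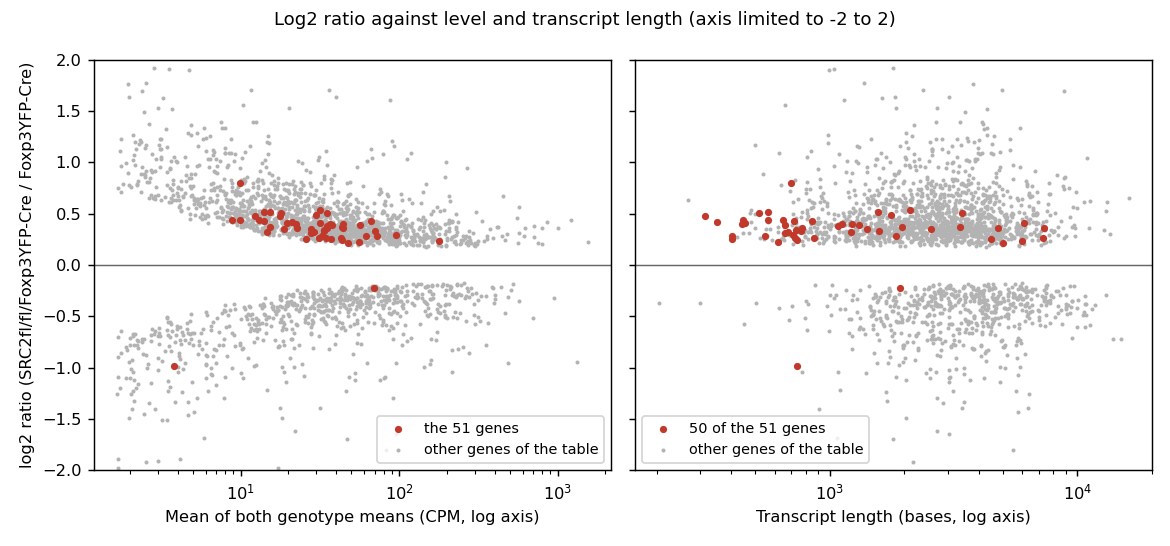
Log2 ratio (SRC2fl/fl/Foxp3YFP-Cre over Foxp3YFP-Cre) against the mean of both genotype means in CPM (left) and against transcript length in bases (right), both on log axes, with the mitochondrial genes in color over the other genes of the comparison in grey. The axis stops at -2 and 2, which leaves out 30 other genes, and the mitochondrial genes sit in the lower part of the upper cloud and mostly at short lengths.

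The genes were spread over 17 chromosomes, with no more than 6 on any of them. Of the 51 genes, 13 (25.5%) start within 1000 bases of a coding gene that runs in the opposite direction, against 11.6% of the 2177 coding genes of the comparison. Of the 13 partners, 4 were themselves listed, and all 4 were higher in SRC2fl/fl/Foxp3YFP-Cre, the direction of 69.2% of all listed genes. Ppp1r10, a regulator of protein phosphatase 1 that starts 45 bases from Mrps18b, averaged 126 CPM in SRC2fl/fl/Foxp3YFP-Cre against 81.4 CPM in Foxp3YFP-Cre (0.63). Fau, which encodes a cytosolic ribosomal protein fused to a ubiquitin-like protein and starts 59 bases from Mrpl49, averaged 23.9 CPM in SRC2fl/fl/Foxp3YFP-Cre against 19.2 CPM in Foxp3YFP-Cre (0.32). Zfp189, 83 bases from Mrpl50, averaged 5.57 CPM in SRC2fl/fl/Foxp3YFP-Cre against 3.96 CPM in Foxp3YFP-Cre (0.49). Lrrc41, 198 bases from Uqcrh, averaged 47.7 CPM in SRC2fl/fl/Foxp3YFP-Cre against 37.9 CPM in Foxp3YFP-Cre (0.33). Exons of 26 of the 51 genes overlap another gene, 20 of them a coding one. Among these, Mrps25 shares 3533 bases of an exon with Nr2c2 and Mrpl19 1962 bases with Gcfc2, both on the other strand. Cox17 shares 168 bases with Gm21987 on the same strand, so levels of genes without a caveat above can be uncertain too. The strand used in counting is not given in the sources used here, so reads of such pairs cannot be told apart with certainty.

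The share of genes that were listed differed between the families. Of 210 annotated coding genes that match the name rule, 50 were listed (23.8%), against 2177 of 21923 coding genes (9.93%), a number that includes genes not expressed in these cells, which the deposited comparison could not hold. By family, 13 of 49 Mrpl genes, 8 of 29 Mrps genes, 6 of 16 Timm genes, 5 of 10 Tomm genes, 3 of 8 Uqcr genes, 6 of 27 Cox genes and 8 of 27 Ndufa, Ndufb and Ndufc genes were listed. Below the share of all coding genes were Atp5, with 1 of 17 genes (5.88%), and the Ndufs and Ndufv, Ndufaf and Sdh genes, with none of 11, 8 and 8. Sets this small hold few genes or none at that share, so no result is read from these counts. The other 160 genes have no value here, so the counts by direction hold for listed genes alone.

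Related genes outside the name rule mostly pointed the same way. Over all listed genes, 69.2% were higher in SRC2fl/fl/Foxp3YFP-Cre and 26.3% were past 1.4-fold higher. Of 52 genes for translation and RNA processing in mitochondria, 14 were listed, all higher in SRC2fl/fl/Foxp3YFP-Cre, with a median log2 ratio of 0.56, and 8 were past 1.4-fold. Pdf, the deformylase that takes the formyl group off the first methionine of proteins made in mitochondria, averaged 18.1 CPM in SRC2fl/fl/Foxp3YFP-Cre against 9.13 CPM in Foxp3YFP-Cre (0.99). The rRNA methyltransferase Mrm3 averaged 11.4 CPM in SRC2fl/fl/Foxp3YFP-Cre against 7.14 CPM in Foxp3YFP-Cre (0.68). The methionyl-tRNA synthetase Mars2 averaged 24.3 CPM in SRC2fl/fl/Foxp3YFP-Cre against 15.7 CPM in Foxp3YFP-Cre (0.63). Mterf4, a ribosome assembly factor, averaged 14.3 CPM in SRC2fl/fl/Foxp3YFP-Cre against 9.46 CPM in Foxp3YFP-Cre (0.59). These 4 had larger ratios than every listed mitochondrial ribosomal protein other than Mrpl53, which only Pdf exceeded. The list was drawn up with earlier results known and does not hold every such gene. Mettl17, a methyltransferase-like factor of mitochondrial ribosome assembly outside the list, named after its value was seen, was lower, at 13.8 CPM in SRC2fl/fl/Foxp3YFP-Cre against 18.2 CPM in Foxp3YFP-Cre (-0.40).

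Of 41 assembly factors and electron carriers of the respiratory chain, 13 were listed, all higher in SRC2fl/fl/Foxp3YFP-Cre, with a median of 0.45. Tmem126b, a complex I assembly factor, averaged 11.6 CPM in SRC2fl/fl/Foxp3YFP-Cre against 7.23 CPM in Foxp3YFP-Cre (0.69). Coa4, a complex IV assembly factor, averaged 9.93 CPM in SRC2fl/fl/Foxp3YFP-Cre against 6.35 CPM in Foxp3YFP-Cre (0.65). Bcs1l, which assembles complex III, averaged 10.2 CPM in SRC2fl/fl/Foxp3YFP-Cre against 6.58 CPM in Foxp3YFP-Cre (0.63). Coq3, a methyltransferase of ubiquinone synthesis, averaged 20.3 CPM in SRC2fl/fl/Foxp3YFP-Cre against 13.4 CPM in Foxp3YFP-Cre (0.61). Dmac2, an assembly factor outside this list that was named after its value was seen, was lower, at 21.5 CPM in SRC2fl/fl/Foxp3YFP-Cre against 30.3 CPM in Foxp3YFP-Cre (-0.50). Of 31 other import and folding genes, 9 were listed, all higher, with a median of 0.31. Chchd4, the oxidoreductase that folds small intermembrane space proteins such as the TIM chaperones, averaged 31.3 CPM in SRC2fl/fl/Foxp3YFP-Cre against 18.2 CPM in Foxp3YFP-Cre (0.78). The protease Clpp (0.51), the cochaperone Dnaja3 (0.50) and the chaperonin Hspd1 (0.37) followed it. Of 24 genes of pyruvate entry and the tricarboxylic acid cycle, 4 were listed and higher. So few say little beside the 69.2% of all listed genes that were higher. Pdhx of the pyruvate dehydrogenase complex led them, at 22.7 CPM in SRC2fl/fl/Foxp3YFP-Cre against 15.1 CPM in Foxp3YFP-Cre (0.59).

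**Figure D5:**
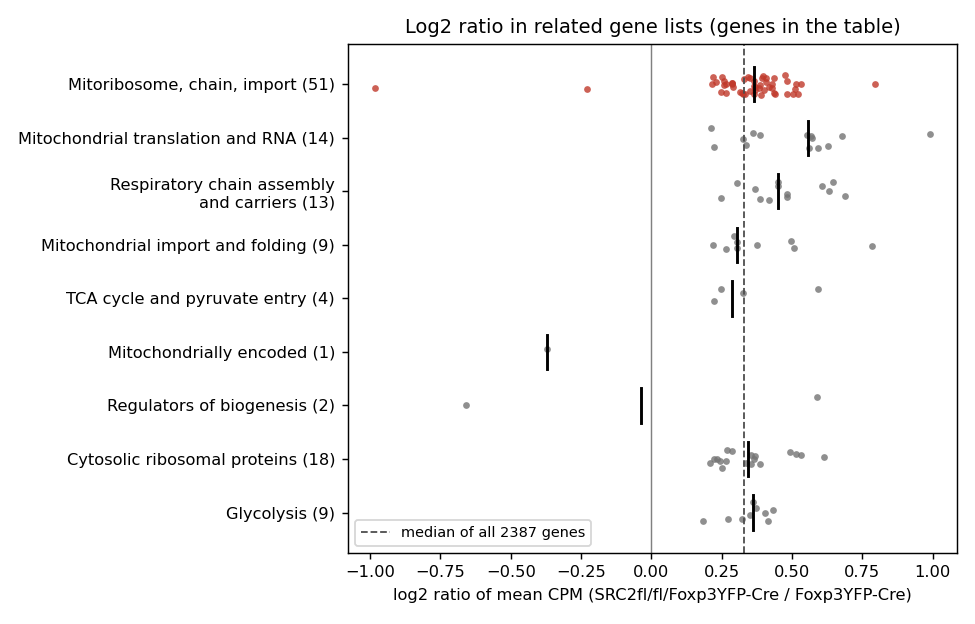
Log2 ratio (SRC2fl/fl/Foxp3YFP-Cre over Foxp3YFP-Cre) of the 51 genes and of the listed genes of related lists, each point a gene and each bar the median of the list. The dashed line is the median of all 2387 genes (0.33), and all plotted genes of the lists for translation, assembly, import, the tricarboxylic acid cycle, the cytosolic ribosome and glycolysis lie to the right of 0.

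Genes of other growth programs gave like values. Of 84 cytosolic ribosomal protein genes, 18 were listed, all higher in SRC2fl/fl/Foxp3YFP-Cre, with a median of 0.34 and the largest ratios in Rps10 (0.61), Rpl36a (0.53), Rpl17 (0.51) and Rpl7l1 (0.49). Of 19 glycolytic genes, 9 were listed, all higher, with a median of 0.36 and the largest ratio in Pgam1 (0.43). All listed genes of these 2 programs were thus higher too, against 69.2% of all listed genes. Of 15 genes of the mitochondrial genome that were looked up, 1 was listed. That gene, mt-Atp8, a subunit of ATP synthase, averaged 25.1 CPM in SRC2fl/fl/Foxp3YFP-Cre against 32.6 CPM in Foxp3YFP-Cre (-0.37), the opposite direction from the nuclear Atp5g3. Of 20 regulators of mitochondrial biogenesis, 2 were listed, in opposite directions. Esrra, the nuclear receptor that binds the ERR motif, averaged 19.0 CPM in SRC2fl/fl/Foxp3YFP-Cre against 12.6 CPM in Foxp3YFP-Cre (0.59). Ppargc1b, a coactivator of that receptor, averaged 2.38 CPM in SRC2fl/fl/Foxp3YFP-Cre against 3.75 CPM in Foxp3YFP-Cre (-0.66).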

How the data were processed

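RNA-seq was measured in CD4+ cells of 2 genotypes after 36 hours of Treg polarization, 3 libraries each. Per the labels and methods, the authors worked in Partek Flow: reads were placed on GRCm38, assigned to genes by the Partek E/M algorithm and scaled to CPM, with an offset of 0.001. Aligner, annotation and software version were not given in the sources used here, nor was the strand setting. The deposited table holds the authors' mean CPM of each genotype and, from the Partek GSA algorithm, their p-value, adjusted p-value, ratio and fold change. These columns of the authors' comparison were not used, except that no gene had a p-value at or above 0.05. A deposited total, named as counts, was 3 times the summed genotype means for each of the 2387 genes (relative tolerance 1e-06), so it is a sum of CPM. Genes had been kept at totals over 10.

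Log2 ratios of the means (SRC2fl/fl/Foxp3YFP-Cre over Foxp3YFP-Cre) were computed with Python 3.11.15, numpy 2.4.6 and pandas 2.3.3, and the computation was tested on simulated data. No value per library was analysed, so no difference was tested, depth and spread are unknown, and p-values of the deposited table were not taken over. Positions and transcript lengths (of the transcript with the longest coding sequence, and the shortest such transcript in a tie) came from GENCODE M21 on GRCm38, and promoters from RefSeq (GRCm38.p6), matched by symbol for 46 of the 51 genes. The members, the gene lists and the motifs were chosen with earlier results of these data known. In each functional group the text names up to 4 genes with the largest ratio, up to 2 with the highest mean, and every lower gene, with groups of 6 or fewer named in full, and up to 4 genes of each other list. Genes named for a motif, an overlap or a neighbouring start were chosen after their values were seen. Alternatives were a minimum of 5 CPM, 1 or 5 CPM added, centring on the median of all genes, means higher by 25% and 50%, structural subunits alone, genes without a named pseudogene and, chosen after seeing the data, shorter transcripts alone.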

Additional observations from a re-analysis of the deposited data

How the results depend on the processing

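The count of genes higher in SRC2fl/fl/Foxp3YFP-Cre cells was 49. Adding 1 or 5 CPM to both means cannot change which is larger. A minimum of 5 CPM in the higher genotype kept all 51 genes. These settings therefore could not alter the count and say nothing about how firm it is. The count was 33 of 51 after centring on the median of all genes, 39 of 40 structural subunits, 46 of 47 without the 4 genes that have a named pseudogene, and 39 of 41 with a transcript shorter than the median of all genes (2819 bases). The count past 1.4-fold higher was 6. It was 1 with 5 CPM added, 0 after centring, 34 at a mean higher by 25% and 1 at 1.5-fold, and it was 4 with 1 CPM added and 4 among structural subunits. Over all genes, the share past 1.4-fold higher was 22.9% with 1 CPM added, 11.7% with 5 CPM added and 8.09% after centring. The median log2 ratio of 0.36 was 0.35 with 1 CPM added and 0.30 with 5 CPM added, next to 0.32 and 0.28 over all genes. It was 0.036 after centring, 0.37 without genes that have a named pseudogene and 0.37 among shorter transcripts. The direction of the median was not turned by centring or in the smaller sets of genes, and added CPM could not turn it. No paired analysis was possible because genotype means carry no replicate numbers. For the same reason no library could be left out and no other normalization or count filter could be applied. The spread between mice and the depth, and with them the precision of each ratio, stay unknown here.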
